A study of Mus musculus with 16 samples.

Results

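Interferon-stimulated genes are the genes that cells switch on when interferon reaches their surface. The 37 genes described here were picked by name as known members of that response, out of 49066 genes in the data. By their roles they form 7 groups: 4 transcription factors, 6 sensors of foreign nucleic acid and their helpers, 2 genes of the ISG15 tagging system, 4 genes of the IFIT family, 3 of the OAS family, 12 other effectors and 6 interferon-inducible GTPases.

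Interferons bind receptors that start the JAK kinases, and the signal reaches the interferon-stimulated response element in the promoters of target genes. IRF1 and IRF7 extend the response. The products block viral replication in many ways, and most tissues, brown fat included, express many of these genes at a low level without infection.

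RNA was sequenced from brown adipose tissue (BAT) of C57BL6/J mice that had eaten a high-fat diet, with 60% of its energy as fat, for 12 weeks from 6 weeks of age, so that they were 18 weeks old. Knockout (KO) mice carried floxed Gdf15 alleles (Gdf15 fl/fl) and Tg (Ucp1-cre)1Evdr, a Cre recombinase driven by the Ucp1 promoter and therefore active in Ucp1-expressing adipocytes, and wild-type (WT) mice were floxed littermates lacking Cre. Both sexes were studied, which gives 16 libraries in 4 groups of 4 mice, WT and KO of each sex. WT mice carried no Cre, so an effect of the Cre transgene itself cannot be told apart from that of the deletion.

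Levels are in TPM, the unit deposited by the authors, which corrects for transcript length and for the total of each library, so levels of different genes can be set side by side. A gene's level sums all its transcripts, including those not annotated as protein-coding. A single transcript of that kind took 57.1% of the Oasl2 total, 29.3% of that of Irf7 and 28.4% of that of Ifi27. Read numbers per library are not part of the data, and the depth is therefore unknown. Fold changes are differences of the mean log2(TPM + 0.5), which understates the change of genes at a few TPM, and most of all near or below 0.5 TPM. A gene was tested in a comparison when its mean over the libraries compared was at least 1 TPM. Tests are those of limma across all genes tested, and an adjusted p under 0.05 after the Benjamini-Hochberg procedure counts as passing.

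Gdf15, the targeted gene, was lower in KO libraries. In male WT replicates 1 to 4 it stood at 0.368, 0.69, 1.55 and 3.81 TPM, and in male KO replicates 1 to 4 at 0.0915, 0.0801, 0.255 and 0.272 TPM. Every male KO library lay below every male WT library (difference of the mean log2 levels -1.38, exact permutation test, two-sided p = 0.0286, the smallest that 4 against 4 allows). In female WT replicates 1 to 4 it stood at 0.0622, 0.311, 0.17 and 0.29 TPM, and in female KO libraries at 0, 0, 0.0794 and 0 TPM. The female groups overlapped, because female KO replicate 3 lay above female WT replicate 1 (log2 difference -0.43, exact permutation test, two-sided p = 0.0571). No library went against its label by more than that overlap, and in females Gdf15 was near the limit of what these values resolve. Over the alternatives run, the log2 difference ranged from -2.26 to -0.94 in males and from -1.32 to -0.24 in females.

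Male WT replicate 2 stood apart from the rest. All 37 members had a higher level there than in the other male WT libraries, against 45.6% of all genes tested over the 16 libraries, and for 20 of the 37 it was the highest of all 16 libraries, against 7.98% of all genes. Zbp1, a sensor of Z-form nucleic acid, was 13.7-fold above the mean of the other 3 male WT libraries there, Mx1, a dynamin-like antiviral GTPase, 10.4-fold, Isg15 4.84-fold and Ifit3 4.48-fold. At the other end, male WT replicate 1 had the lowest level of all 16 libraries for 19 members, against 19.7% of all genes, and mitochondrial transcripts took 59.8% of its TPM, the highest share of any library. In female WT replicate 4 the transcripts that could be assigned to no gene took 17.7% of TPM, of which a lone transcript made up 16.5%, against 0.333% to 0.48% in the other libraries. Results that rest on male WT replicate 2 are given with and without it. It was singled out by the levels of the members themselves. Leaving it out therefore lowers the male WT mean of every member by construction. The direction of that shift is no separate result in any comparison that uses male WT.

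The mean log2 level of the 36 members with at least 1 TPM over all libraries serves as a score of each library. In male WT replicates 1 to 4 the score was 2.24, 3.61, 2.51 and 2.52, and in male KO replicates 1 to 4 it was 2.40, 2.92, 2.58 and 2.62. The male groups overlapped, WT at 2.72 ± 0.61 (SD, n = 4) and KO at 2.63 ± 0.22 (SD, n = 4), and without replicate 2 the male WT mean was 2.42 ± 0.16 (SD, n = 3), below KO instead of above it. In female WT replicates 1 to 4 the score was 2.90, 2.44, 2.83 and 2.67, and in female KO replicates 1 to 4 it was 3.24, 3.18, 2.79 and 3.04. Female KO libraries averaged 3.06 ± 0.20 (SD, n = 4) and female WT libraries 2.71 ± 0.21 (SD, n = 4), and only female KO replicate 3 lay within the female WT range. After dividing each library by its median ratio to the others, the female scores were 2.63 to 2.84 in WT and 2.90 to 3.14 in KO. With mitochondrial transcripts left out the female groups overlapped, with female KO replicate 3 at 3.78 and female WT replicate 3 at 3.80. The unassigned transcripts stayed in the total in that setting. This lowers every assigned gene in female WT replicate 4, whose score was then 3.22, the lowest of any library, and it affects each comparison that uses female WT. Whole tissue was sequenced, so fewer cells of a type and less RNA per cell cannot be told apart in any of these values.

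**Figure D1:**
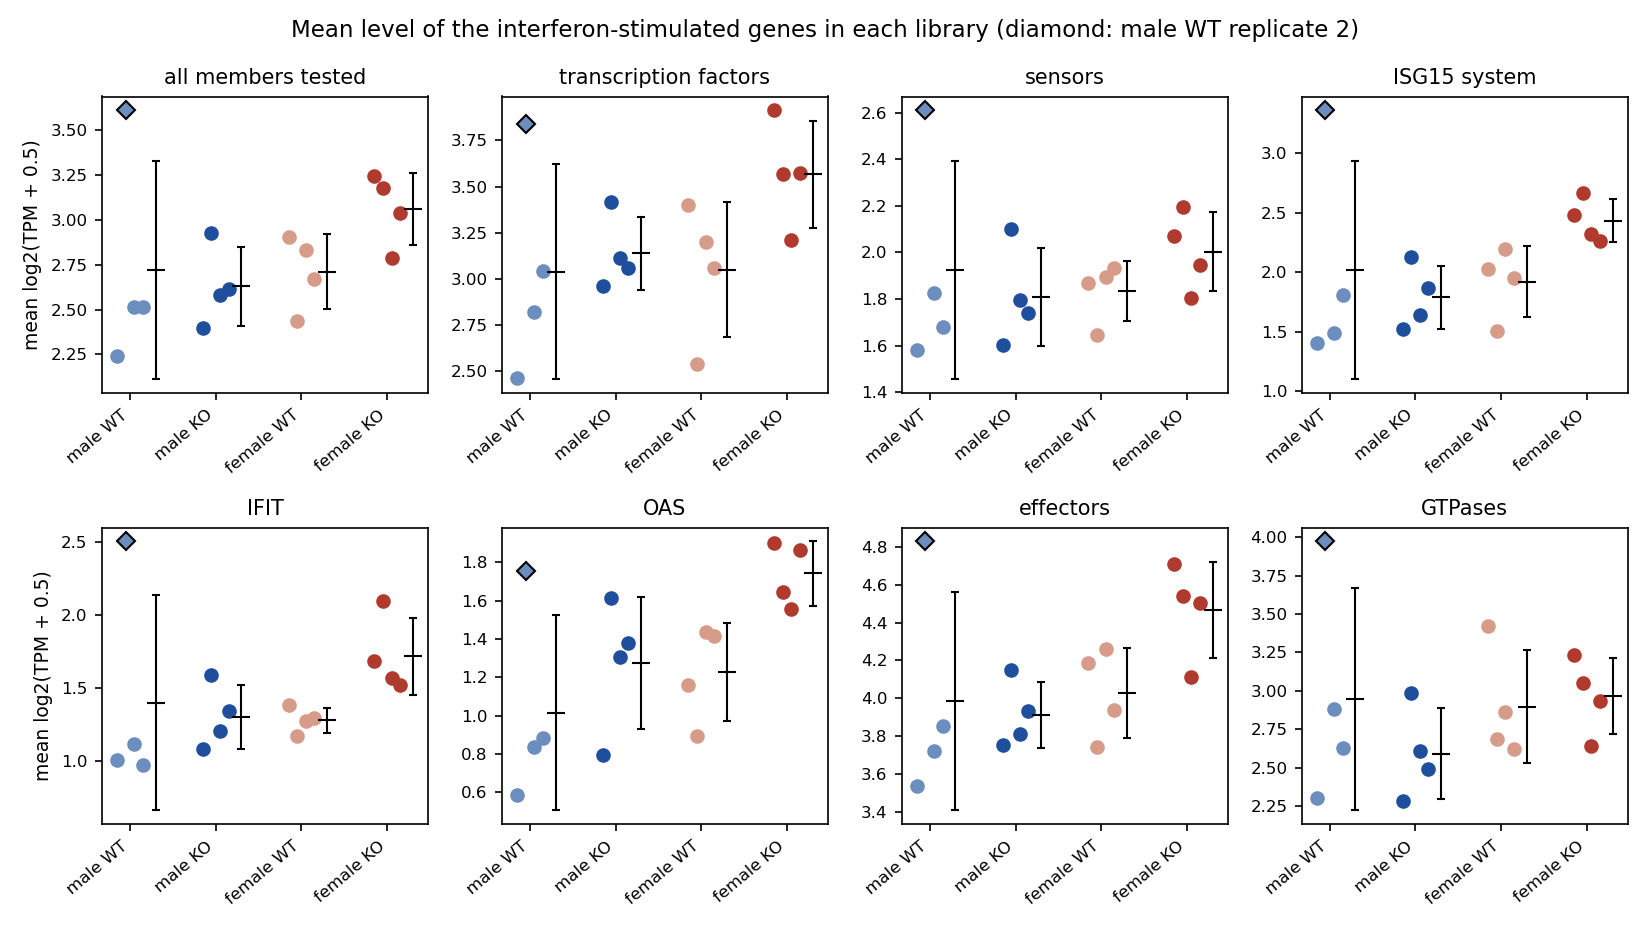
Mean log2(TPM + 0.5) of the members in each library, for all 36 members tested and for each role group. Points are libraries by group, the diamond is male WT replicate 2, and the bars are the group mean ± SD (n = 4); for all members male WT replicate 2 is at 3.61, above the highest female KO library at 3.24.

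**Figure D2:**
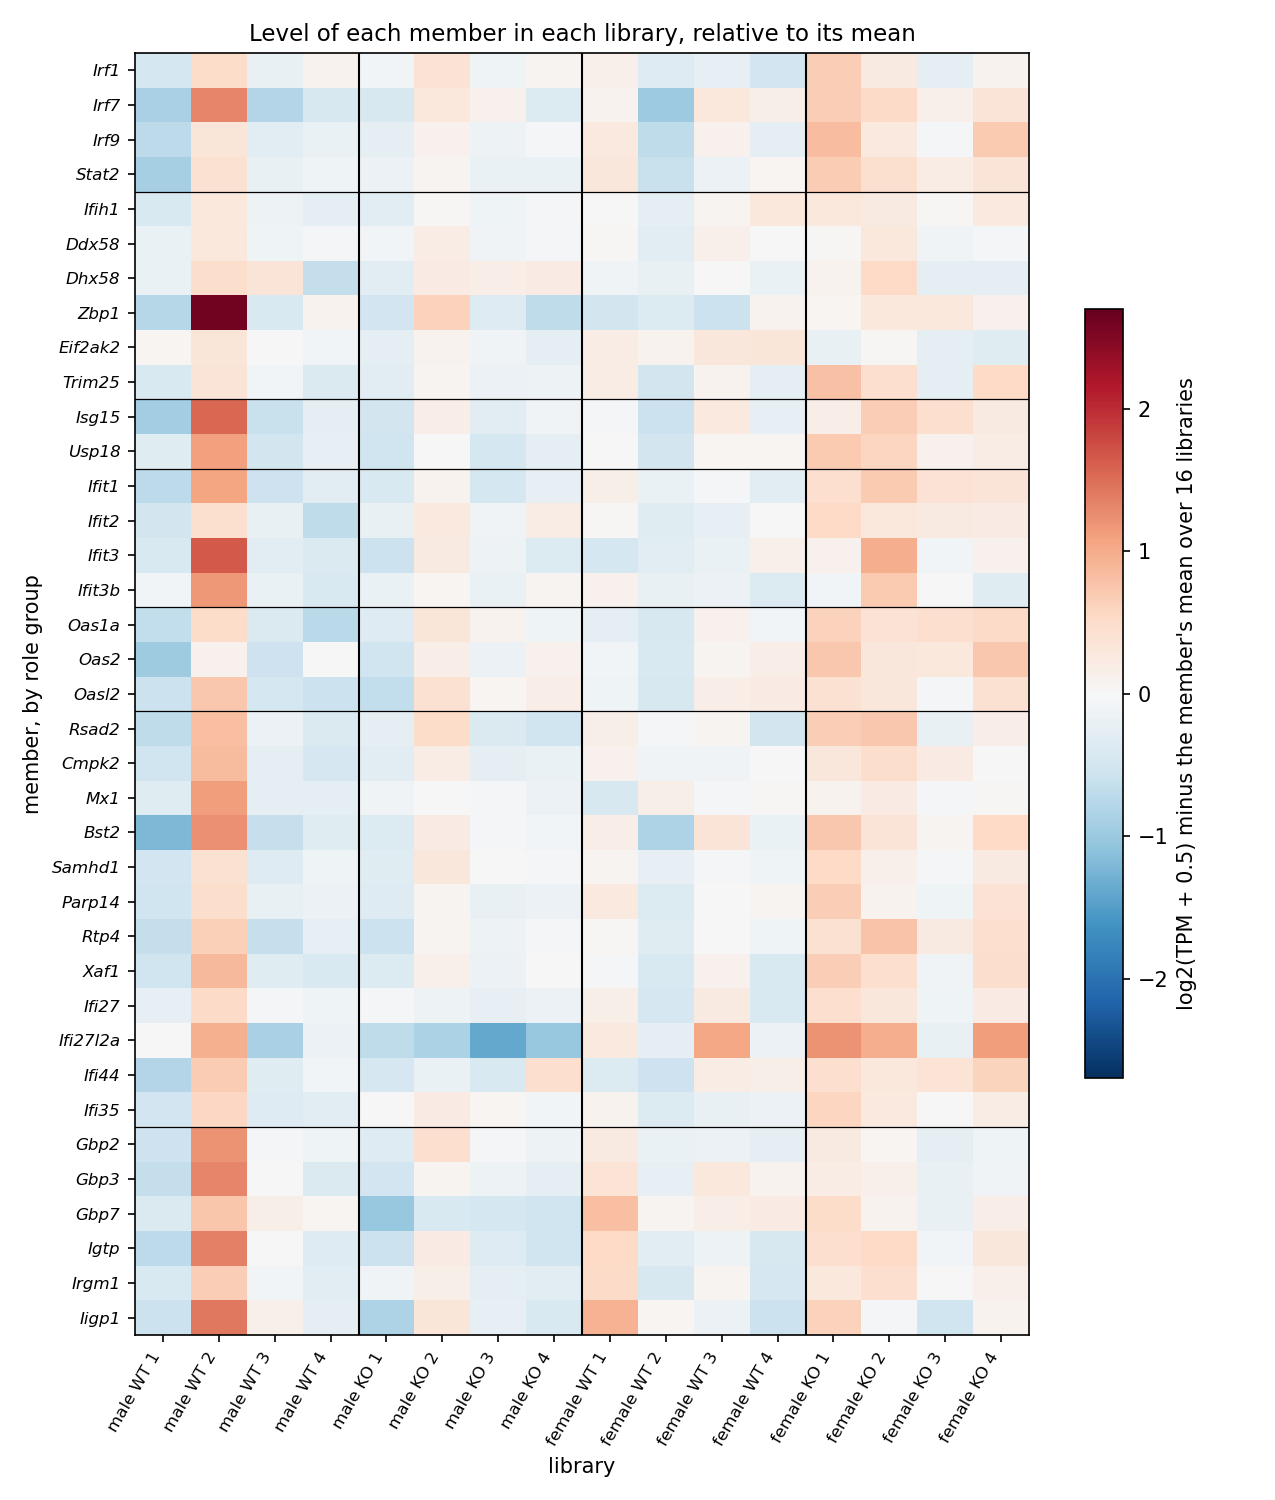
Level of each of the 37 members (lines, by role group) in each of the 16 libraries (columns), as log2(TPM + 0.5) minus the member's mean over all libraries. Male WT replicate 2 holds the highest value of 20 members, and male WT replicate 1 the lowest of 19.

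The comparison of KO with WT in males asks what loss of Gdf15 in brown adipocytes does to these genes in males on the high-fat diet. Of the 35 members tested, 16 had a higher mean log2 level in KO and 19 a lower one, and the largest differences were lower values of Ifi27l2a and Gbp7. By limma 0 members passed at an adjusted p under 0.05, where 0.00821% of all 12177 genes did. At an unadjusted p under 0.05, 0 members were higher, where 17.7% of all genes were, and 2 were lower, Gbp7 and Ifi27l2a, where 1.07% were. Groups that did not overlap gave 0 members higher in KO, against 9.54% of all genes, and 1 lower, Gbp7, against 0.673%. Oas1a and Mx1 stayed below the minimum of 1 TPM in males.

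Over all genes the male KO libraries ran higher than WT, with a median log2 fold change of 0.16, and dividing each library by its median ratio to the other libraries brings that to 0.00. That scaling turns 2151 genes higher and 130 lower at an unadjusted p under 0.05 into 1010 and 877. The median of the members was -0.04, or -0.20 relative to all genes, and after that scaling it was -0.18, with 4 members higher, 31 lower and 4 of the lower ones at an unadjusted p under 0.05, where 7.26% of all genes were lower. With mitochondrial transcripts left out it was -0.12 against 0.07 for all genes. Most of the gap came with male WT replicate 2. Without it 28 of the 33 members tested were higher in KO and 5 lower, namely Eif2ak2, Ifi27, Ifi27l2a, Gbp7 and Iigp1, with a median of 0.23 against 0.20 for all genes. By limma 0 of them had an adjusted p under 0.05, 5 were higher at an unadjusted p under 0.05 (Irf7, Ifit2, Bst2, Xaf1 and Ifi35, against 22.8% of all genes) and 2 lower (Gbp7 and Ifi27l2a, against 0.931%). The direction of 12 members turned without that library, and with the median-ratio scaling as well the median was 0.04, with 18 members higher and 15 lower. The sign of the male median also turned without male KO replicate 1, to 0.04, and without male KO replicate 3, to 0.00, and without male KO replicate 3 only 1 member was lower at an unadjusted p under 0.05. It turned further, to 0.16 against 0.14 for all genes, with the leading part of each library's name (library prefix) as a covariate. In that fit 29 members were higher and 6 lower, and 0 were lower at an unadjusted p under 0.05, where 0.747% of all genes were.

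The comparison of KO with WT in females asks the same of females on that diet. Of the 35 members tested, 31 had a higher mean log2 level in KO and 4 a lower one, with a median of 0.42, or 0.32 relative to the 0.10 of all genes. The 12 members higher at an unadjusted p under 0.05 were Ifi35, Ifi44, Ifit1, Ifit2, Irf9, Isg15, Oas1a, Oas2, Rtp4, Stat2, Usp18 and Xaf1, or 34.3% of those tested, where 11.6% of all genes were higher. The lone member lower was Eif2ak2, where 5.46% of all genes were lower. In 7 members, Ifi44, Ifit1, Ifit2, Oas1a, Oas2, Rtp4 and Usp18, every KO library lay above every WT library, against 4.9% of all genes, and in 1, Eif2ak2, every KO library lay below, against 3.19%. Oas1a, counted among the 12 and the 7, reached the minimum of 1 TPM only through its KO libraries, with a WT mean of 0.959 TPM. None of this passed the correction over all genes: by limma 0 members had an adjusted p under 0.05, where 0% of all 12141 genes did, and the smallest was 0.231 after Benjamini-Hochberg. Zbp1 and Mx1 stayed below the minimum in females.

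In females the scaling mattered less. After dividing by the median ratio, 29 members were higher and 6 lower, with a median of 0.33 against 0.01, and 12 were still higher at an unadjusted p under 0.05, where 10.6% of all genes were, while all genes went from 1414 higher and 663 lower to 1289 and 1163. The count of 12 rested in part on a few libraries: it was 6 without female WT replicate 2, 5 without female KO replicate 1 and 19 without female KO replicate 3, where 5.8%, 5.42% and 17% of all genes were higher. It was 1, where 5.26% of all genes were higher, with the library prefix, the leading part of each library's name, as a covariate.

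**Figure D3:**
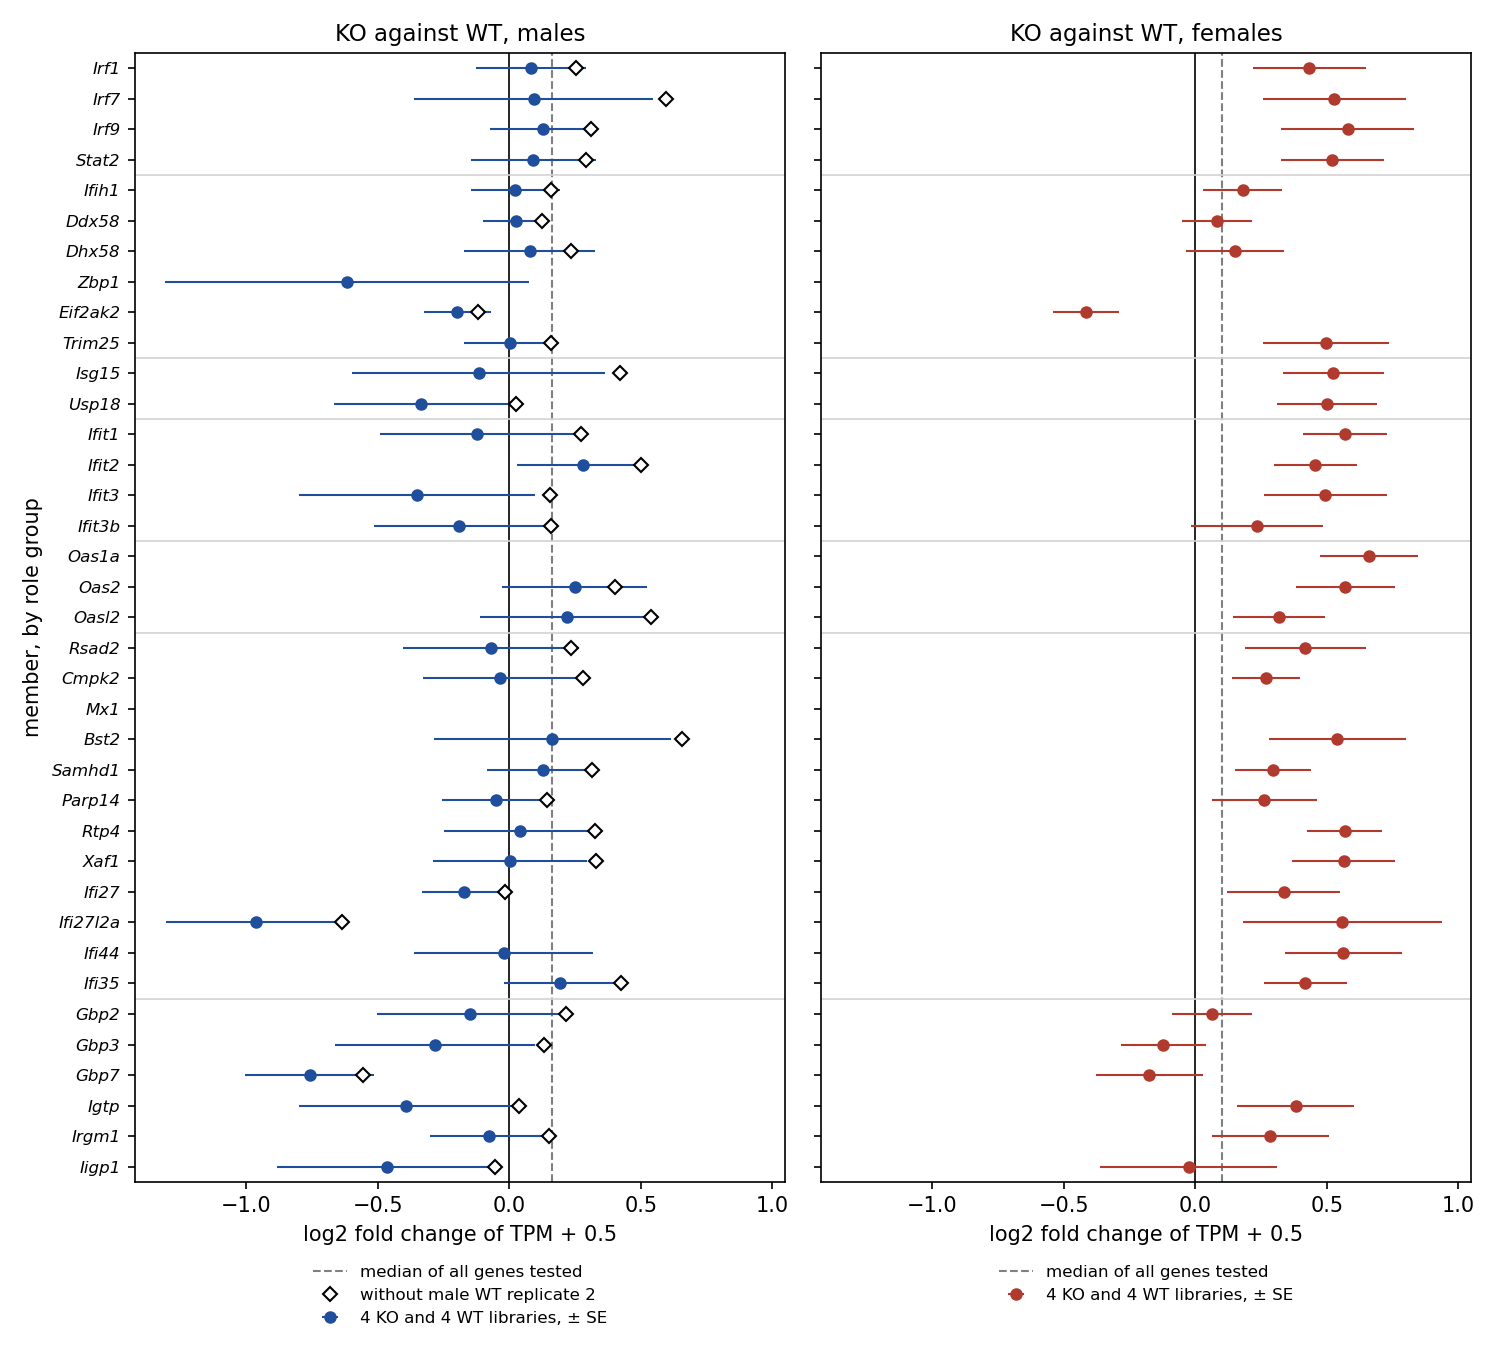
Log2 fold change of each member, KO against WT, in males (left) and females (right), grouped by role; filled points are all 8 libraries of a sex with ± SE, open diamonds are males without male WT replicate 2, and the dashed line is the median of all genes tested. In females 31 of 35 members lie above 0, and in males 16 of 35, or 28 of 33 without male WT replicate 2.

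Among the transcription factors, Irf1, a factor induced by type I and type II interferon, had the highest mean level. It stood at 10.6, 21.3, 12.9 and 15.96 TPM in male WT replicates 1 to 4 and at 14.1, 19.8, 13.7 and 15.6 TPM in male KO. In females it stood at 16.5, 11.6, 12.7 and 10.2 TPM in WT and at 24.1, 17.8, 12.4 and 16.1 TPM in KO. The male groups overlapped throughout, and in females 2 KO libraries, replicates 1 and 2, exceeded every WT library. The other 3 were Irf7, which drives interferon production and amplifies the response, and Irf9 and Stat2, which act in signalling from the type I receptor. In females all 4 were higher in KO, by 0.43 to 0.58 on the log2 scale (Irf1 0.43, Stat2 0.52, Irf7 0.53 and Irf9 0.58), and Stat2 and Irf9 had an unadjusted p under 0.05. In males all 4 were higher in KO by 0.08 to 0.13 as deposited, less than the all-gene median of 0.16, and all 4 were lower after median-ratio scaling, 2 of them with mitochondrial transcripts left out. Without male WT replicate 2 Irf7 was higher by 0.60 in males instead of 0.09.

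The sensors split. Trim25, a ubiquitin ligase that activates RIG-I, had the highest mean level of the 6. It stood at 5.31, 9.33, 6.90 and 5.44 TPM in male WT replicates 1 to 4, at 5.84, 7.62, 6.47 and 6.53 TPM in male KO, at 8.46, 5.03, 7.76 and 5.93 TPM in female WT and at 12.9, 10.1, 5.99 and 10.8 TPM in female KO. The male groups overlapped, with a log2 fold change of 0.00, and in females every KO library but replicate 3 exceeded every WT library (0.50).

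Eif2ak2 went the other way. It encodes PKR, the kinase that halts translation when it binds double-stranded RNA. It stood at 3.80, 3.52, 4.18 and 4.22 TPM in female WT replicates 1 to 4 and at 2.80, 3.33, 2.67 and 2.50 TPM in female KO, so that no KO library reached the lowest WT library. Female WT averaged 3.93 ± 0.335 (SD, n = 4) and female KO 2.82 ± 0.356 (SD, n = 4), a log2 fold change of -0.42 (SE 0.12, limma, Benjamini-Hochberg adjusted p = 0.231). In male WT it stood at 3.42, 4.19, 3.25 and 3.10 TPM and in male KO at 2.65, 3.51, 3.05 and 2.70 TPM. Here 3 of the 4 KO libraries lay below every WT library and KO replicate 2 did not, with a log2 fold change of -0.20, or -0.12 without male WT replicate 2. Eif2ak2 was lower in KO in both sexes under all scalings run.

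Ddx58, the gene of RIG-I, lay between 5.25 and 8.05 TPM over the 16 libraries, Ifih1, the gene of MDA5, between 1.51 and 2.76 TPM, and Dhx58, the gene of their regulator LGP2, between 1.91 and 4.95 TPM. Their log2 fold changes were 0.02, 0.02 and 0.08 in males and 0.08, 0.18 and 0.15 in females, with standard errors of 0.12 to 0.25, and all 3 were lower in males under both other scalings and Ddx58 in females after median-ratio scaling (-0.01). Zbp1 stood at 7.38 TPM in male WT replicate 2 and between 0.258 and 1.48 TPM in the other 15 libraries. Its male log2 fold change was -0.62 (SE 0.69), and without male WT replicate 2 it was below the minimum in males. In females it was below the minimum, at 0.537 ± 0.228 (SD, n = 4) TPM in WT and 0.963 ± 0.118 (SD, n = 4) TPM in KO (log2 difference 0.52, exact permutation test, two-sided p = 0.0571).

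Isg15 encodes a ubiquitin-like protein that is attached to other proteins and also secreted, and Usp18 encodes the protease that removes it and damps signalling at the interferon receptor. Isg15 stood at 2.62, 17.1, 3.44 and 4.56 TPM in male WT replicates 1 to 4 and at 3.76, 6.35, 4.34 and 5.13 TPM in male KO. In females it stood at 5.41, 3.53, 6.75 and 4.63 TPM in WT and at 6.29, 9.08, 7.71 and 6.59 TPM in KO. Female KO was higher by 0.52 on the log2 scale, although WT replicate 3 lay above KO replicates 1 and 4. The male difference was -0.12 with male WT replicate 2 and 0.42 without it. Usp18 stood at 1.75, 5.52, 1.495 and 1.92 TPM in male WT, at 1.45, 2.28, 1.51 and 1.87 TPM in male KO, at 2.32, 1.5, 2.40 and 2.41 TPM in female WT and at 4.09, 3.70, 2.56 and 2.75 TPM in female KO. No female KO library overlapped with WT (0.50), and in males the difference was -0.34, or 0.03 without male WT replicate 2.

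The 4 members of the IFIT family, which bind foreign RNA ends and block translation, lie together on chromosome 19. Ifit3 was the most abundant, at 3.63, 16.8, 3.90 and 3.70 TPM in male WT replicates 1 to 4 and at 3.17, 5.98, 4.47 and 3.71 TPM in male KO. In females it stood at 3.42, 3.94, 4.31 and 5.54 TPM in WT and at 5.47, 10.3, 4.69 and 5.46 TPM in KO. Male WT replicate 2 and female KO replicate 2 were the high libraries of this gene, and the groups overlapped in both sexes. Ifit3b is a near copy of Ifit3, and how reads were split between them is uncertain.

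Ifit1 and Ifit2 had no overlap between the female groups. Ifit1 stood at 2.01, 1.47, 1.65 and 1.34 TPM in female WT replicates 1 to 4 and at 2.56, 3.15, 2.45 and 2.35 TPM in female KO, or 1.61 ± 0.291 (SD, n = 4) against 2.63 ± 0.358 (SD, n = 4). The log2 fold change was 0.57 (SE 0.16, limma, Benjamini-Hochberg adjusted p = 0.231). In males it stood at 0.867, 4.15, 1.03 and 1.30 TPM in WT and at 1.18, 1.90, 1.11 and 1.42 TPM in KO, a difference of -0.12, or 0.27 without male WT replicate 2. Ifit2 stood at 1.79, 1.28, 1.43 and 1.71 TPM in female WT and at 2.75, 2.23, 2.14 and 2.11 TPM in female KO, a log2 fold change of 0.46. In males it stood at 1.09, 2.50, 1.45 and 0.881 TPM in WT and at 1.43, 2.17, 1.60 and 2.07 TPM in KO. Ifit2 was the lone IFIT gene with a higher male KO mean with all libraries (0.28), and all 4 were higher without male WT replicate 2, 2 of them if median-ratio scaling was applied as well. In females all 4 were higher in KO, also under both other scalings.

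The OAS proteins make the signalling molecule that activates RNase L, and the 3 members lie on chromosome 5. Oasl2, an OAS-like protein, was the most abundant, at 2.42, 6.72, 2.65 and 2.43 TPM in male WT replicates 1 to 4 and at 2.27, 5.28, 4.01 and 4.48 TPM in male KO. In females it stood at 3.51, 2.74, 4.43 and 4.58 TPM in WT and at 5.34, 4.87, 3.79 and 5.32 TPM in KO. In both sexes 3 of 4 KO libraries lay above the WT libraries other than male WT replicate 2. Oas1a stood at 0.849, 0.706, 1.26 and 1.03 TPM in female WT and at 1.99, 1.63, 1.72 and 1.81 TPM in female KO. Its female log2 fold change was 0.66 (SE 0.19, limma, Benjamini-Hochberg adjusted p = 0.231), the largest of the members tested. Its mean was 0.959 TPM in female WT and 1.79 TPM in female KO. It was therefore tested in females only because of its level in KO, and its rank and p are to be read with that limit. In males it stood at 0.527, 1.76, 0.728 and 0.478 TPM in WT and at 0.762, 1.53, 1.22 and 0.996 TPM in KO, where its mean over the sex was below the minimum (log2 difference 0.31, exact permutation test, two-sided p = 0.371). Oas2 stood at 1.57, 1.13, 1.79 and 1.95 TPM in female WT, at 3.09, 2.19, 2.16 and 3.08 TPM in female KO, at 0.625, 1.84, 0.976 and 1.69 TPM in male WT and at 1, 1.95, 1.45 and 1.87 TPM in male KO. Oas1a and Oas2 had no overlap in females and were higher in female KO under all scalings run, and so was Oas2 in males. The Oas1 genes of the mouse are close copies, so the share of reads given to Oas1a is uncertain.

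Of the 12 other effectors, Ifi27 and Ifi27l2a were by far the most abundant members, with means of 1715 and 521 TPM over the 16 libraries, while the others had means of 0.256 to 30.9 TPM. They are small hydrophobic proteins of mitochondria or the nuclear envelope, their genes lie together on chromosome 12, and as relatives they may share reads. Ifi27 stood at 1450, 2401, 1646 and 1545 TPM in male WT replicates 1 to 4, at 1632, 1526, 1451 and 1513 TPM in male KO, at 1881, 1221, 1999 and 1262 TPM in female WT and at 2307, 2088, 1562 and 1957 TPM in female KO. Its male KO libraries fell inside the WT range (-0.17, or -0.01 without male WT replicate 2), and 2 of the 4 female KO libraries lay above WT (0.34).

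Ifi27l2a differed more. In male WT replicates 1 to 4 it stood at 441.6, 863, 242 and 395 TPM and in male KO at 274, 246, 169.9 and 219 TPM. Male WT replicate 3 at 242 TPM lay below KO replicates 1 and 2, so the groups overlapped, and the means were 485 ± 266 (SD, n = 4) and 227 ± 44.2 (SD, n = 4) TPM. The log2 fold change was -0.96 (SE 0.34, limma, Benjamini-Hochberg adjusted p = 0.219), and -0.64 without male WT replicate 2. In females it stood at 532, 368, 921 and 400.4 TPM in WT and at 1036, 875, 388 and 967 TPM in KO, with 2 KO libraries above WT, KO replicate 3 near the lowest WT library and a log2 fold change of 0.56 (SE 0.38). Ifi27l2a was lower in male KO and higher in female KO under all scalings run.

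Rtp4, a receptor-transport protein with antiviral activity, had the smallest p of all members in females. It stood at 4.48, 3.39, 4.41 and 3.999 TPM in female WT replicates 1 to 4 and at 5.97, 7.78, 5.25 and 6.18 TPM in female KO. Every KO library lay above every WT library, with means of 4.07 ± 0.5 (SD, n = 4) and 6.30 ± 1.07 (SD, n = 4) TPM and a log2 fold change of 0.57 (SE 0.14, limma, Benjamini-Hochberg adjusted p = 0.231). Male levels were 2.63, 7.14, 2.65 and 3.68 TPM in WT and at 2.75, 4.64, 3.95 and 4.22 TPM in KO, a difference of 0.04, or 0.33 without male WT replicate 2.

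The other 9 effectors were Rsad2 and its neighbour Cmpk2 on chromosome 12, which make an antiviral chain-terminating nucleotide from CTP and supply nucleotides for it, Mx1, Bst2, which tethers budding virus, Samhd1, which breaks down nucleotides, Parp14, an ADP-ribosyltransferase, Xaf1, a pro-apoptotic factor, and Ifi44 and Ifi35. In females all 11 tested effectors were higher in KO under every scaling run, and besides Rtp4 those with an unadjusted p under 0.05 were Xaf1 (0.56), Ifi44 (0.56) and Ifi35 (0.42). In males 5 of 11 were higher in KO as deposited, 1 after median-ratio scaling and 3 with mitochondrial transcripts left out, against 8 of 10 without male WT replicate 2. Bst2 ranged from 11.97 TPM in male WT replicate 1 to 67.9 TPM in male WT replicate 2. Ifi35 was higher in all 4 male KO libraries, at 12.9 to 15.8 TPM, than in male WT replicates 1, 3 and 4, at 9.29 to 11.1 TPM, but not than male WT replicate 2 at 20.03 TPM. Mx1 was below 1 TPM in every library but male WT replicate 2, where it reached 1.1 TPM. Its means were 0.354 ± 0.497 (SD, n = 4) TPM in male WT, 0.193 ± 0.0305 (SD, n = 4) in male KO, 0.205 ± 0.116 (SD, n = 4) in female WT and 0.271 ± 0.0636 (SD, n = 4) in female KO. The groups overlapped in both sexes (exact permutation test, two-sided p = 1 in males and 0.429 in females).

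The 6 GTPases, which attack the membranes of vacuoles that hold microbes, are known as targets of type II interferon in particular. In females 3 of 6 were higher in KO and 3 lower, with a median of 0.02 that turned to -0.07 after median-ratio scaling, with 2 higher and 4 lower, and to -0.03 with mitochondrial transcripts left out. None of them had all female KO libraries above WT. Gbp2, a guanylate-binding protein, had the highest mean level, at 14.1, 10.4, 10.5 and 9.99 TPM in female WT replicates 1 to 4 and at 14.03, 12.2, 9.95 and 10.9 TPM in female KO. In males it stood at 7.83, 28.3, 11.53 and 10.97 TPM in WT and at 9.15, 16.3, 11.4 and 10.8 TPM in KO. Gbp2, Gbp3 and Gbp7 lie in a cluster of related genes on chromosome 3, where the assignment of reads between copies is uncertain.

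Gbp7 was the lone member with no overlap between the male groups. It stood at 1.99, 5.02, 3.15 and 2.88 TPM in male WT replicates 1 to 4 and at 1.09, 1.96, 1.84 and 1.75 TPM in male KO, with means of 3.26 ± 1.27 (SD, n = 4) and 1.66 ± 0.388 (SD, n = 4). The gap between the groups was narrow, from 1.96 TPM in KO replicate 2 to 1.99 TPM in WT replicate 1. The log2 fold change was -0.76 (SE 0.25, limma, Benjamini-Hochberg adjusted p = 0.205), or -0.56 without male WT replicate 2. Female levels were 5.21, 2.92, 3.20 and 3.31 TPM in WT and at 4.13, 2.96, 2.35 and 3.21 TPM in KO, and the groups overlapped (-0.18). Gbp7 was lower in KO in both sexes under all scalings run.

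Iigp1, an immunity-related GTPase, stood at 3.47, 15.3, 6.05 and 4.53 TPM in male WT replicates 1 to 4 and at 2.84, 6.93, 4.62 and 3.97 TPM in male KO. Female levels were 10.9, 5.62, 4.81 and 3.49 TPM in WT and at 8.70, 5.21, 3.59 and 5.88 TPM in KO. The groups overlapped in both sexes, with log2 fold changes of -0.47 in males, -0.06 without male WT replicate 2, and -0.03 in females. Gbp3 and the immunity-related GTPases Igtp and Irgm1, both on chromosome 11, were highest in male WT replicate 2, at 22.4, 19.5 and 12.5 TPM. In males all 6 were lower in KO under every scaling run with all libraries, with a median of -0.34, and without male WT replicate 2 there were 4 higher and 2 lower, or 1 higher and 5 lower with median-ratio scaling as well.

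Whether the KO effect differs between the sexes was tested directly, as the male effect minus the female effect. It was negative for 35 of 36 members, the exception being Eif2ak2 (0.22), with a median of -0.43 against 0.06 for all genes. By limma 0 members had an adjusted p under 0.05, where 0% of 12210 genes did. At an unadjusted p under 0.05, 0 members had a higher male effect, where 11.7% of all genes did, and 1, Ifi27l2a, a lower one, where 2.51% did. For Ifi27l2a the difference was -1.52 (SE 0.55, limma, Benjamini-Hochberg adjusted p = 0.252), and for Usp18 and Ifi27, next by p, it was -0.84 and -0.51, or -0.48 and -0.35 without male WT replicate 2. After median-ratio scaling the split over all genes was 1136 higher and 1129 lower instead of 1431 and 306, and 5 members were lower at an unadjusted p under 0.05, where 9.26% of all genes were.

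The difference was smaller without male WT replicate 2. Without it 23 of 35 members had a lower male effect and 12 a higher one, with a median of -0.12 against 0.11 for all genes, and Ifi27l2a stood at -1.20. With the library prefix as covariate 24 of 36 members had a lower male effect and 12 a higher one, with a median of -0.04 against 0.14 for all genes, 0 were lower at an unadjusted p under 0.05, where 1.11% of all genes were, and Ifi27l2a stood at -0.88. The lower members at an unadjusted p under 0.05 numbered 6 without male WT replicate 1, 4 without female KO replicate 3 and 3 without female WT replicate 1, where 4.22%, 5.52% and 5.26% of all genes were lower. They numbered 2 without male WT replicate 3, male WT replicate 4, male KO replicate 2 or female WT replicate 3, where 1.96% to 3.07% of all genes were lower. The comparisons of the sexes share no library, but the difference reuses the values of both, so its direction adds nothing to them.

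Averaged over both sexes, 28 of 36 members were higher in KO and 8 lower, with a median of 0.15 against 0.13 for all genes. When male WT replicate 2 was left out, 31 of 35 were higher and 4 lower, with a median of 0.33 against 0.15 for all genes, or 0.18 against 0.01 with median-ratio scaling as well. By limma 0 members had an adjusted p under 0.05, where 2.95% of all genes did. At an unadjusted p under 0.05, 4 were higher, Ifi35, Ifit2, Oas1a and Oas2, where 21.4% of all genes were, and 2 were lower, Eif2ak2 and Gbp7, where 2.58% were. Oas1a reached the minimum of 1 TPM in this fit only through its KO libraries. Its WT means were 0.874 TPM in males and 0.959 TPM in females, so its call is to be read with that limit. Eif2ak2 came closest, with a mean log2 fold change of -0.31 (SE 0.08, limma, Benjamini-Hochberg adjusted p = 0.0552), being lower in 7 of 8 KO libraries than every WT library of the same sex.

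The average changed with scaling and with male WT replicate 2. After median-ratio scaling, which turns 2615 genes higher and 315 lower into 1416 and 1114 and the all-gene median into 0.01, the members' median was 0.03 and Eif2ak2 and Gbp7 fell with limma and Benjamini-Hochberg adjusted p of 0.0122 (-0.42) and 0.0293 (-0.58), where 3.86% of all genes passed. They also passed with mitochondrial transcripts left out, at limma and Benjamini-Hochberg adjusted p of 0.0416 and 0.0492, where 3.25% of all genes did. Over all alternatives run the smallest adjusted p of any member ranged from 0.0122 to 0.186. Without male WT replicate 2, 6 members passed, where 8.66% of all genes did, and all 6 were higher in KO: Ifi35 (0.42), Ifit1 (0.42), Ifit2 (0.48), Oas1a (0.62), Rtp4 (0.45) and Xaf1 (0.45), with limma and Benjamini-Hochberg adjusted p of 0.0197 to 0.0471. That library was singled out because the members were high in it, so this shift toward higher KO values is built in. Oas1a, which had the smallest adjusted p of the 6, was again tested only through its KO libraries. With median-ratio scaling and without male WT replicate 2, 4 passed, Eif2ak2 and Gbp7 as lower and Ifi35 and Oas1a as higher, where 6.65% of all genes did. With mitochondrial transcripts left out instead only 1 passed, Oas1a (0.65, limma, Benjamini-Hochberg adjusted p = 0.0262), where 3.35% of all genes did. Without female KO replicate 2, 1 member passed, Eif2ak2 (-0.34, limma, Benjamini-Hochberg adjusted p = 0.0338), where 4.8% of all genes did. The 4 higher members at an unadjusted p under 0.05 became 18 without male WT replicate 2, where 26.7% of all genes were higher, and 7 without female KO replicate 3, where 26.6% were. They became 2 without male WT replicate 3, male WT replicate 4, female WT replicate 2 or female KO replicate 4, where 16.2% to 23.7% of all genes were higher, and 1 without male WT replicate 1, male KO replicate 2 or female KO replicate 1, where 15% to 16.9% were. With the library prefix as covariate they also became 1, where 10.5% of all genes were higher. The smallest adjusted p of any member was then 0.173 (limma, Benjamini-Hochberg).

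The comparison of male WT with female WT asks whether the level of these genes in BAT after the high-fat diet differs between the sexes when Gdf15 is intact. It did not separate them with all libraries: 16 of 35 members were higher in males and 19 lower, with a median of -0.03 against 0.05 for all genes. By limma 0 members had an adjusted p under 0.05, where 0.0664% of 12042 genes did, 0 were higher at an unadjusted p under 0.05, where 2.18% were, and 0 lower, where 1.25% were. Without male WT replicate 2, 32 of 33 members were lower in males, Irf1 being the exception (0.05), with a median of -0.29 against 0.02 for all genes. Then 4 members, Oasl2 (-0.50), Cmpk2 (-0.39), Rtp4 (-0.40) and Gbp3 (-0.48), were lower at an unadjusted p under 0.05, where 1.8% of all genes were, or 8 members, against 2.72% of all genes, if median-ratio scaling was applied as well, and 0 had an adjusted one by limma. With mitochondrial transcripts and male WT replicate 2 both left out, 0 members were lower at an unadjusted p under 0.05, with a median of -0.16 against 0.16 for all genes. With all libraries the median turned to 0.02 with mitochondrial transcripts left out. In both of these settings the unassigned transcripts of female WT replicate 4 stayed in its total, which lowers the female WT values. It also turned to 0.16 without male WT replicate 1, 0.05 without male WT replicate 4, and 0.04 without male WT replicate 3, female WT replicate 1 or female WT replicate 3.

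The members moved together from mouse to mouse. After each gene's group mean was taken off, so that neither sex nor genotype could align them, the 630 pairs of the 36 members had a median Pearson correlation of 0.74 over 16 libraries, and 100% of the pairs were above 0. Over all pairs of the 12210 genes tested the median was 0.225, with 71.4% above 0, and Spearman's correlation of the members was 0.64. After median-ratio scaling the members' median was 0.61, with 98.3% of pairs above 0, against 0.001 and 50.1% over all genes, and with mitochondrial transcripts left out it was 0.63, against 0.255 over all genes. Without male WT replicate 2 the median was 0.53, with 97% of 595 pairs above 0, against 0.227 over all genes. These correlations describe 16 libraries that share a protocol and are given without a test.

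Members differed in how closely they followed the rest. The correlation with the mean of the other members was 0.97 for Gbp3 and 0.95 for Gbp2, Xaf1 and Bst2. It was lowest for Dhx58 (0.59), Ifi27l2a (0.63), Ifi44 (0.67), Oas2 (0.68) and Eif2ak2 (0.69). Without male WT replicate 2 Gbp3 stayed at 0.89, whereas Ifit3b (0.24), Ifi44 (0.33) and Zbp1 (0.34) were the lowest. In TPM as deposited Eif2ak2 varied with the other members within groups, at 0.53 without that library, although its KO difference in females had the opposite sign. These correlations by member were not taken after median-ratio scaling.

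The 10 genes outside the members whose group-centred levels followed the members' score most closely, of 12174 compared, were Psmb8, Rnf213, Psmb9, Ly6e, Parp12, Ifitm3, H2-T23, Sap18, Ocel1 and Fars2, with correlations of 0.94 to 0.91 over 16 libraries, or 0.79 to 0.96 without male WT replicate 2. Psmb8 and Psmb9 encode subunits of the immunoproteasome, Ifitm3 a membrane protein that blocks viral entry, and H2-T23 a non-classical MHC class I protein. Psmb8 stood at 6.37, 36.2, 10.4 and 10.97 TPM in male WT replicates 1 to 4 and between 7.53 and 17.1 TPM in the other 12 libraries. This order rests on male WT replicate 2. Without it Parp12 ranked 2 and Ocel1 5, Sap18 26, Rnf213 84, Fars2 151, Psmb8 178, Ly6e 202, Ifitm3 249, H2-T23 353 and Psmb9 428. In 8 of the 10 male WT replicate 2 was the highest library, and 6 are on a list of 76 other interferon-stimulated genes.

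Of those 76 other interferon-stimulated genes, 56 were tested in each sex, and how alike they were to the members was not tested. In females 48 were higher in KO and 8 lower, with a median of 0.26, and 16 were higher and 0 lower at an unadjusted p under 0.05, where 11.6% and 5.46% of all genes were. Ifi203, a relative of DNA sensors, stood at 6.71, 6.03, 7.63 and 6.06 TPM in female WT replicates 1 to 4 and at 14.2, 11.4, 8.61 and 13.2 TPM in female KO, without overlap (0.78). Ly6e, a surface protein that limits viral entry, was also higher in female KO (0.77). In males 35 were higher and 21 lower, with a median of 0.10, and 22 higher and 34 lower after median-ratio scaling. At an unadjusted p under 0.05, 4 were higher, Shisa5 (0.52) among them, and 1 lower, Cd274, the gene of PD-L1 (-0.39), where 17.7% and 1.07% of all genes were. Without male WT replicate 2, 49 were higher and 7 lower, with 19 higher at an unadjusted p under 0.05, where 22.8% of all genes were. That library was the highest of all 16 for 20 of the 56, or 35.7%, against 7.98% of all genes. By limma 0 of the 56 had an adjusted p under 0.05 in either sex.

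The interferons themselves were at or near 0. Of 11 interferon genes on the list, 10 stood at 0 TPM in all 16 libraries, and Ifng, the gene of type II interferon, did not exceed 0.149 TPM, its value in male WT replicate 2. Their messages are short-lived and made by few cells in most settings, and the depth needed to see them is unknown here.

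In the lists below the shares of all genes are the background: 79.9% were higher in KO in males and 62.7% in females, and 17.7% and 11.6% were higher at an unadjusted p under 0.05. Of 10 receptor and kinase genes of the pathway, 9 were tested, and in males 8 were higher in KO and 1 lower, with 2 higher at an unadjusted p under 0.05, Jak2 (0.32) and Ifngr1 (0.28), or 6 higher and 3 lower after median-ratio scaling. In females 4 were higher and 5 lower, with 0 at an unadjusted p under 0.05 and 0 by limma in either sex after correction. Ifngr1, the binding chain of the type II receptor, was higher in both sexes (0.28 and 0.32), and Jak1 was higher in males (0.20) and lower in females (-0.17).

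Of 18 listed genes that lead to interferon production 16 were found by symbol and 12 tested. In males 11 were higher in KO and 1 lower, with 4 higher at an unadjusted p under 0.05, and in females 9 were higher and 3 lower, with 2 higher. After median-ratio scaling 9 were higher and 3 lower in each sex. Irf8, a factor of myeloid cells, stood at 0.706, 1.29, 0.876 and 1.22 TPM in male WT replicates 1 to 4 and at 2.01, 1.82, 2.004 and 2.05 TPM in male KO, without overlap (0.72, or 0.80 without male WT replicate 2). Irf5 was higher in males by 0.54, and the adaptors Tmem173, the gene of STING, and Myd88 were higher in females by 0.43 and 0.60.

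Of 11 listed brakes on the response 10 were tested. In males 8 were higher in KO and 2 lower, with Ptpn1 (0.34) and Pias3 (0.21) higher at an unadjusted p under 0.05, which is close to the 79.9% and 17.7% of all genes, or 6 higher and 4 lower after median-ratio scaling. In females 7 were higher and 3 lower, with Pias3 (0.28) and Adar (0.45), which edits double-stranded RNA, higher and the phosphatase Ptpn11 lower (-0.44) at an unadjusted p under 0.05. By limma 0 genes of these lists had an adjusted p under 0.05 in either sex.

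Markers of other cells differed in how far they followed the members, and their part in the results was not tested. All 8 endothelial markers were tested and all 8 were higher in female KO, 7 at an unadjusted p under 0.05, with a median of 0.75, where 62.7% of all genes were higher and 11.6% at that p. In males all 8 were higher in KO, 2 at an unadjusted p under 0.05, where 79.9% and 17.7% of all genes were, with a median of 0.29 that became 0.48 without male WT replicate 2, and 6 of 8 were higher under each of the other scalings. Their summed level in replicates 1 to 4 was 241, 482, 301 and 380 TPM in male WT, 376, 445, 412 and 405 in male KO, 319, 219, 291 and 338 in female WT and 729, 411, 366 and 532 in female KO. Egfl7 was the most abundant at a mean of 141 TPM. No female KO library overlapped with female WT in that sum. Within groups the mean log2 level of these markers followed the members' score with a correlation of 0.74 over 16 libraries, or 0.68 without male WT replicate 2.

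All 11 tested macrophage markers of 13 were higher in male KO, 8 of them at an unadjusted p under 0.05, where 79.9% and 17.7% of all genes were, with a median of 0.90, and 10 of 11 were higher after median-ratio scaling. In females 9 were higher and 2 lower. Their sum in replicates 1 to 4 was 49.8, 95.9, 61.1 and 95.0 TPM in male WT, 123, 174, 137 and 178 in male KO, 75.2, 77.1, 126 and 59.6 in female WT and 119, 81.7, 87.6 and 108 in female KO, with Lyz2 the most abundant at 40.9 TPM. The male groups did not overlap in this sum, whereas they did in the members' score. The correlation with the score within groups was 0.55, or 0.50 without male WT replicate 2.

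T and NK cell markers were low, with 0 of 13 at a mean of at least 1 TPM and Trac the most abundant at 0.764 TPM, but none at 0 throughout. Their sum was 8.70 TPM in male WT replicate 2 and 1.98 to 4.15 TPM in the other 15 libraries. Within groups their mean log2 level followed the score with a correlation of 0.84, which became 0.36 without male WT replicate 2. Of 8 dendritic cell markers only Zbtb46 averaged at least 1 TPM, at 5.69 TPM, and the sums ran from 4.81 TPM in male WT replicate 1 to 12.5 TPM in female KO replicate 1, with 9.24 TPM in male WT replicate 2. Zbtb46 alone made up 3.86, 9.44 and 6.67 TPM of these sums, in that order, so they describe mostly that gene. The correlation of the dendritic cell markers with the score was 0.77, or 0.68 without male WT replicate 2.

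The 12 brown adipocyte markers were all tested, and 9 were higher in female KO and 4 in male KO, or 9 in male KO without male WT replicate 2 and 2 with median-ratio scaling as well. Their sums were 15903, 22281, 17767 and 17853 TPM in male WT replicates 1 to 4, 18269, 18403, 17109 and 16889 in male KO, 17505, 13844, 16934 and 11123 in female WT and 20999, 17484, 13889 and 20789 in female KO, with Fabp4 the most abundant at 6328 TPM. Male WT replicate 2 was the highest here too, and the correlation with the score was 0.63, or 0.58 without it. Muscle markers ranged from 1.92 TPM in female WT replicate 4 to 4145 TPM in male KO replicate 1, with Acta1 the most abundant at 275 TPM, and their correlation with the score was -0.18, or -0.67 without male WT replicate 2. B cell markers summed to 7.18 to 99.5 TPM, most of it Ighm, and neutrophil markers to 2.26 to 15.1 TPM, with S100a9 the most abundant, and their correlations with the score were -0.03 and -0.11, or -0.02 and 0.04 without male WT replicate 2.

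The library names carry a prefix whose meaning is not stated, and it overlaps with the groups. Within prefix 9, 3 male KO libraries can be set against 2 male WT libraries, male WT replicate 2 not among them, and there 29 of 35 members were higher in KO with a median of 0.16, against 77.8% and 0.14 for all genes. In females prefix 10 holds 1 KO and 1 WT library, with a median of 0.40 and 26 of 35 members higher, against 0.00 and 49.5% for all genes, and prefix 8b holds 1 KO and 3 WT libraries, with a median of 0.14 and 23 of 35 higher, against 0.03 and 53.8%. Gbp7 and Eif2ak2 were lower in KO in all 3 of these sets, Eif2ak2 by -0.04, -0.38 and -0.49.

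Members that move together may share promoter letters, so promoters of 300 bases from RefSeq (GRCm38.p6), from before to shortly after each gene's start, were searched. The table holds 31 promoters of 27 members, and Dhx58, Zbp1, Usp18, Oas2, Mx1, Parp14, Rtp4, Ifi27, Ifi27l2a and Iigp1 are not in it. The core of the interferon-stimulated response element, GAAANNGAAA or its reverse complement TTTCNNTTTC, was present in 16 of 31 member promoters (51.6%), against 3.44% of all 32851 promoters. Shown are Ifit1, higher in female KO, and Gbp7 and Eif2ak2, lower in KO, picked after their values were seen because they went in different directions and each holds the response element core, which is in capitals. They lie at chr19:34640639-34640938 on the plus strand (Ifit1), chr3:142530086-142530385 on the plus strand (Gbp7) and chr17:78882523-78882822 on the minus strand (Eif2ak2), and each is written 5′ to 3′ in the direction of the gene.
Ifit1: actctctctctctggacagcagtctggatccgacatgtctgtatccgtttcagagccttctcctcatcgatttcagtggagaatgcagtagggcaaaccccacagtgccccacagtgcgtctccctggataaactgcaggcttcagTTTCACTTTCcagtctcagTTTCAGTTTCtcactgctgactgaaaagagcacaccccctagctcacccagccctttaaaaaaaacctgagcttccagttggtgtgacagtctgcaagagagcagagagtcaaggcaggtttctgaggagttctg
Gbp7: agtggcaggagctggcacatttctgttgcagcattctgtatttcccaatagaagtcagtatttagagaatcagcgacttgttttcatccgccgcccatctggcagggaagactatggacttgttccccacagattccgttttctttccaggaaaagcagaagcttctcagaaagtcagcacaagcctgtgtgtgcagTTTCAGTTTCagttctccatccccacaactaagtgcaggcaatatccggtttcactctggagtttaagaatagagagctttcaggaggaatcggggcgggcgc
Eif2ak2: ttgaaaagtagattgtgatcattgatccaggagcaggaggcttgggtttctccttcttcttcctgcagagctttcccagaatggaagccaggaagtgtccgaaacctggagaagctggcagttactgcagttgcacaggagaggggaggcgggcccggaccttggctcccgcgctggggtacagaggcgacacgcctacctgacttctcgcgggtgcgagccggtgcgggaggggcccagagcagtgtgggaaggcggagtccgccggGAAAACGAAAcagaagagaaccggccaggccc
Ifit1 holds the core 2 times and Gbp7 and Eif2ak2 1 time each. A match describes these letters only, and members with and without it were not compared.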

How the data were processed

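Brown adipose tissue from 16 mice was profiled by stranded mRNA sequencing, 4 mice per group. The authors quantified transcripts with kallisto 0.46.2 (genome build GRCm39 per the submitters' processing notes, annotation release not stated) and deposited TPM per transcript, without counts, so the depth per library is unknown. Here TPM was summed per gene symbol with GENCODE mouse release M21 after version suffixes were dropped, which placed 135051 of 137438 transcripts. Each comparison was fitted with limma 3.58.1 (R 4.3.3, trended eBayes; Python 3.11.15, pandas 2.3.3, numpy 2.4.6) on log2(TPM + 0.5) over all genes with a mean of at least 1 TPM, with Benjamini-Hochberg adjustment over all of them, and tested on simulated data beforehand. Gdf15 and members below the minimum were compared by an exact permutation test. The p-values measure only the spread among these mice.

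Members and lists were chosen with earlier results of these data known. Values in every library are given for the 6 members with the smallest p in each sex, the most abundant member of each role group, the 3 with the smallest p for the difference between the sexes, and Gdf15. From each pathway list and the other interferon-stimulated genes, the 2 with the smallest p in each sex are named, and the 10 genes most alike to the members. Promoters were printed for at most 3 named members holding the response element core. Other named genes were chosen after their values were seen. Correlations use levels centred on group means. Lists were other interferon-stimulated genes, interferons, receptors and kinases, inducers, brakes, and markers of macrophages, T and NK cells, B cells, dendritic cells, neutrophils, endothelium, muscle and brown adipocytes. Alternatives were pseudocounts of 1 and 0.1, no minimum or 5 TPM, median-ratio scaling, TPM without mitochondrial transcripts, protein-coding transcripts alone, no trend, Spearman's correlation, members of at least 5 TPM, a replicate block, the library prefix as covariate, all 16 libraries in one fit, and leaving out each library. Both scalings without male WT replicate 2, and the weight given to that library among those left out, were chosen after seeing the data.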

Additional observations from a re-analysis of the deposited data

Results flagged for a closer look

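In groups of 4, 6 of 104 sets of values held a library far from the other 3, and chance alone marks about 1 in 20 such sets. In male WT replicate 2 the mean log2 level of the IFIT genes was 2.50, against 0.98 to 1.11 in the other male WT libraries, Ifit3 was 16.8 TPM, against 3.63 to 3.90 TPM, and Oasl2 was 6.72 TPM, against 2.42 to 2.65 TPM. In female WT replicate 1 Gbp2 was 14.1 TPM, against 9.99 to 10.5 TPM in the other female WT libraries. In female WT replicate 2 Usp18 was low, at 1.5 TPM against 2.32 to 2.41 TPM. In female KO replicate 3 Gdf15 was 0.0794 TPM, against 0 TPM in the other 3 female KO libraries, and since those are exactly 0, any value above 0 would have been marked. The cause of these values was not tested.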

How the results depend on the processing

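Over all alternatives 785 values kept within a set tolerance and 62 moved past it. The tolerance was 1.5 times for counts, 0.1 for correlations, the spread between mice (1 SD) for medians and Gdf15, and for named members the same direction and side of the adjusted threshold. Medians near 0 in males and between the sexes in WT changed sign within it. By limma 0 members had an adjusted p under 0.05 in males, in females, for the difference and between the sexes in WT under every alternative. Counts below are of members at an unadjusted p under 0.05 unless said otherwise, and where a count moved the cause was not tested, except that a minimum of 5 TPM tests fewer members.

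With a minimum of 5 TPM, males had 1 lower, females 6 higher and 0 lower, and the mean effect 1 higher and 0 lower. Of all genes 0.73%, 13%, 4.92%, 22.7% and 1.55% were called, in that order. With median-ratio scaling, males had 4 lower, the difference 5 lower, the mean effect 2 past the adjusted threshold and 2 higher, and the median correlation of member pairs was 0.61. The shares of all genes for these counts were 7.26%, 9.26%, 3.86% and 11.6%. With mitochondrial transcripts left out, males had 4 lower, the difference 3 lower, the mean effect 2 past the adjusted threshold, and the correlation was 0.63. Over all genes the shares called were 3.65%, 4.31% and 3.25%. With protein-coding transcripts only, the mean effect had 2 higher, where 23.1% of all genes were. With the library prefix as covariate, males had 0 lower, females 1 higher, the difference 0 lower with a median of -0.04, and the mean effect 1 higher. All-gene shares in that fit were 0.747%, 5.26%, 1.11% and 10.5%. In males that fit rests on prefix 9, with 2 WT and 3 KO libraries. In females it rests on prefix 10, with 1 library of each genotype, and prefix 8b, with 3 WT and 1 KO. It could not be fitted for the sexes in WT and was not run there.

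With the replicate number as a block (replicate block), the difference had 5 lower and the mean effect 1 past the adjusted threshold and 9 higher, so calls went up, where 3.19%, 4.28% and 21.7% of all genes were called. A WT library correlated best with the KO library of its own number in 3 of 8 cases, male 1, male 4 and female 1.

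With median-ratio scaling and without male WT replicate 2, males had 3 higher and 4 lower, the difference 3 lower, the mean effect 4 past the adjusted threshold and 12 higher, and the sexes in WT 8 lower. Among all genes 8.88% and 7.89% were called in males and 6.22% for the difference. For the mean effect the shares were 6.65% and 12.9%, and for the sexes in WT 2.72%. With mitochondrial transcripts left out and without male WT replicate 2, males had 4 higher, the difference 2 lower, and the mean effect 1 past the adjusted threshold and 13 higher. Here 10.7%, 2.66%, 3.35% and 12.8% of all genes were called. Both settings were chosen after seeing the data.

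Leaving out each library in turn gave ranges. The share of all genes called in the same fits is given in brackets. Males had 0 to 5 higher (9.37% to 23.6%) and 1 to 2 lower (0.798% to 1.52%), with a median of -0.19 to 0.23. Females had 5 to 19 higher (5.42% to 17%), with a median of 0.31 to 0.51. The difference had 1 to 6 lower (1.16% to 5.52%), with a median of -0.59 to -0.12. The mean effect had 0 to 6 past the adjusted threshold (0.255% to 8.66%) and 1 to 18 higher (15% to 27.2%), with a median of 0.07 to 0.33. The sexes in WT had 0 to 4 lower (0.828% to 2.09%), with a median of -0.29 to 0.16, and the correlation ran from 0.53 to 0.77. Depth is unknown, so what it limits was not tested.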
